A study of Homo sapiens with 2 samples.

Results

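The miR-320 family of microRNAs (miRNAs) was followed on 2 one-colour arrays of H460, an established human line of non-small cell lung cancer. One array carried total RNA from cells given sulforaphane for 48 hours, and the other carried total RNA from cells given vehicle for 48 hours. Sulforaphane is an isothiocyanate of cruciferous vegetables known as an activator of the antioxidant regulator NRF2. The sources used here do not give its dose, and both cultures came from the same line. The family was taken by probe name, as hsa-miR-320a, hsa-miR-320b, hsa-miR-320c, hsa-miR-320d and hsa-miR-320e, which gave 5 of the 1273 human miRNA probes on the array. The family was selected on its brightness and log2 ratios on these same arrays, so all its values are descriptions. With 1 array a group, neither a spread between samples nor a test between the conditions can be given.

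Most miRNAs are cut from a long transcript by the nuclear enzyme Drosha before Dicer cuts the hairpin in the cytoplasm. The hairpin of miR-320a is known from mouse and human cells as an exception that does not need Drosha: it starts at its own transcription start site, carries a cap at its 5′ end and leaves the nucleus through exportin-1. The mature miRNA comes mainly from the 3′ arm of the hairpin. The lettered members are paralogs that differ at the ends of the mature sequence, and a miRNA pairs with its targets mainly through its seed, bases 2 to 8.

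Mature sequences for 4 of the 5 members were found by name in the RefSeq table of GRCh38.p14. They are shown because the members differ in so few bases, with the seed in capitals.
miR-320b: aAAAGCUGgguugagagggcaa
miR-320c: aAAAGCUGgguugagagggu
miR-320d: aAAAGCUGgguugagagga
miR-320e: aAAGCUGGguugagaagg
The lengths were 22 bases for miR-320b, 20 for miR-320c, 19 for miR-320d and 18 for miR-320e. miR-320b, miR-320c and miR-320d had the same seed, AAAGCUG. miR-320e started 1 base further in, which gave it the seed AAGCUGG. Counted from base 1 at the 5′ end of miR-320b, the substitutions were C20U in miR-320c, G19A in miR-320d and G17A in miR-320e. The first 3 of these members shared a run of 18 bases, and all 4 shared a run of 15 bases. Guanine and cytosine made up 50% of the bases in miR-320b, miR-320c and miR-320e and 47.4% in miR-320d. Of the other human miRNAs in this table, 1 had either seed, and the array files held no probe of that name. This search covered only probes whose names matched the table.

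The 4 members came from 7 hairpin loci. One hairpin per member is shown because the mature sequences, in capitals in the 3′ arm, part near their 3′ ends.
MIR320B1: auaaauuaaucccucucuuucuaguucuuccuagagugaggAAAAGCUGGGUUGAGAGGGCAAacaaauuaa
MIR320C1: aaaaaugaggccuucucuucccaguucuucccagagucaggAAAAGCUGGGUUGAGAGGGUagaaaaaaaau
MIR320D1: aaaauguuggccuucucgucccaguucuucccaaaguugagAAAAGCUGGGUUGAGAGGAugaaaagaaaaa
MIR320E: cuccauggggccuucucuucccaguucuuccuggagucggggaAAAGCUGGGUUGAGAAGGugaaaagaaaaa
On GRCh38.p14, MIR320B1 lies at chr1:116671746-116671817 on the plus strand and overlaps no other gene of the RefSeq gene table. MIR320C1 lies at chr18:21683518-21683589 on the plus strand, within the span of ABHD3. MIR320D1 lies at chr13:40727816-40727887 on the minus strand and overlaps no other gene of that table. MIR320E lies at chr19:46709282-46709354 on the minus strand, within the span of PRKD2. The second loci were MIR320B2 at chr1:224257040-224257110 within NVL, MIR320C2 at chr18:24321675-24321746 within OSBPL1A, and MIR320D2 at chrX:140926160-140926231. Since paired loci give the same mature sequence, no probe could tell them apart. Whether exons or introns are overlapped was not analysed here.

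The probe values are the authors' normalized intensities, which are background-subtracted intensities divided by 1 factor per array. A probe was called above the floor where it exceeded the 95th percentile of its array's 143 probes for viral miRNAs. This floor was 5.52 on the sulforaphane array and 6.44 on the vehicle array. All 5 miR-320 probes were above it on both arrays, as were 168 human miRNA probes in all. The brightest foreground reading of a member was 4376 units, far under the highest reading of any probe, 65535 units.

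miR-320a, the first described member, read 34.7 with sulforaphane, against 25.2 with vehicle. This was 1.38-fold higher with sulforaphane, a log2 ratio of 0.46, and it was the highest ratio of the family. The background-subtracted intensities behind it were 4306 units with sulforaphane and 2807 units with vehicle.

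miR-320b, which has the longest of the printed mature forms, read 29.5 with sulforaphane and 25.6 with vehicle, a log2 ratio of 0.21. miR-320c, which ends 2 bases earlier, read 30.7 with sulforaphane and 29.3 with vehicle, a log2 ratio of 0.07. These 3 brighter members all read higher with sulforaphane on the authors' scale, by steadily smaller amounts from a to c.

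miR-320d, which ends at base 19, read 15.5 with sulforaphane and 16.5 with vehicle, a log2 ratio of -0.09. miR-320e, the member with the shifted seed, read 13.7 with sulforaphane and 16.2 with vehicle, a log2 ratio of -0.24. These 2 dimmer members read lower with sulforaphane. Their background-subtracted intensities were 1922.5 and 1698 units with sulforaphane, against 1842.5 and 1804.5 units with vehicle. For miR-320d the unnormalized difference therefore ran the other way, at a log2 ratio of 0.061, while that of miR-320e stayed negative at -0.088.

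**Figure D1:**
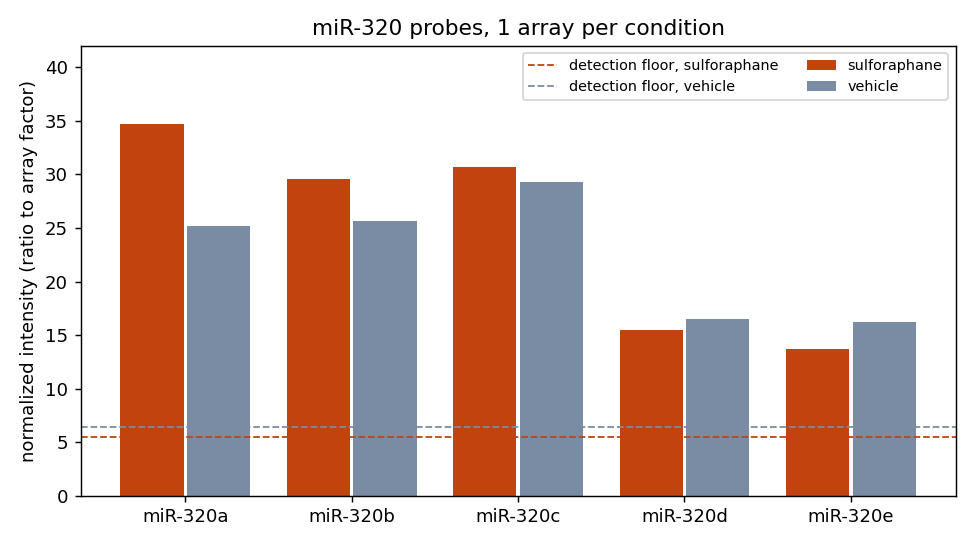
Normalized intensity (vertical axis, linear, from 0) of the 5 miR-320 probes, with the sulforaphane array left and the vehicle array right in each pair; dashed lines mark each array's detection floor and there are no replicates. miR-320a stands at 34.7 with sulforaphane and 25.2 with vehicle, while miR-320e stands at 13.7 with sulforaphane and 16.2 with vehicle.

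The brightness of the probes fell into an upper set, a, b and c, and a lower set, d and e, on each array. With sulforaphane the order from bright to dim was a, c, b, d, e, and with vehicle it was c, b, a, d, e. With sulforaphane the upper set stood 5.36 to 6.30 times above the floor, and with vehicle 3.91 to 4.55 times. The lower set stood 2.48 and 2.81 times above it with sulforaphane, and 2.51 and 2.57 times with vehicle. Among the 168 detected miRNAs, miR-320a ranked 50th in brightness with sulforaphane and 55th with vehicle, while miR-320e ranked 119th with sulforaphane and 89th with vehicle. Capture probes differ in affinity, so this order is one of spots and not of miRNA abundance. The local background of the 5 spots was 55.5 to 69.5 units with sulforaphane and 36.5 to 45.5 units with vehicle, small beside every member's signal.

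The log2 ratios fell in letter order, from 0.46 in a through 0.21 in b, 0.07 in c and -0.09 in d to -0.24 in e. The mature forms of b to e also shorten in that order, at 22, 20, 19 and 18 bases. The ends of the family were 0.71 apart on the log2 scale, the widest of the 10 pairs of members. No single factor per array can alter that gap. Letter neighbours were 0.26 apart between a and b, 0.14 between b and c, 0.16 between c and d and 0.15 between d and e. Over the 5 members the SD of the log2 ratios was 0.27. It was 0.39 over the 168 detected miRNAs and 0.37 over the 51 others in the members' range of brightness. The log2 ratios of the 41 detected spike-in probes had an SD of 0.20 between probes, which corresponds to 0.29 for the difference of 2 such probes. This SD is given for scale only, since the family was selected on these ratios. That spread holds none of the variation between cultures, and only 6 of these spike-in probes lay in the members' own range of brightness, where their SD was 0.19.

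No member reached a 2-fold difference in either direction on the authors' scale. Over all 168 detected miRNAs, 3.57% were 2-fold higher or more with sulforaphane and 1.19% were 2-fold lower or more. Nor did any member reach 1.5-fold, which 16.1% of detected miRNAs did upward and 2.98% downward. A ratio above 0 was found for 3 of the 5 members, against 82.7% of detected miRNAs. The family's median log2 ratio was 0.07, and that of all 168 detected miRNAs was 0.38, with quartiles of 0.12 and 0.54. Relative to that median, which leaves 50% of detected miRNAs below it by construction, miR-320a lay 0.08 above, and the other 4 lay at -0.18 for b, -0.32 for c, -0.48 for d and -0.62 for e. Of the 168 detected miRNAs, 106 had a lower ratio than miR-320a, 53 a lower ratio than miR-320b and 35 a lower ratio than miR-320c. For miR-320d there were 20 and for miR-320e 11. These places depended on the floor: miR-320e was above 6.55% of the 168, but above 19.2% of the 556 miRNAs that passed a floor set at the median of all probes.

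Ratios on these arrays moved with brightness, with a Spearman correlation of 0.27 over the 163 detected miRNAs outside the family. These points share both arrays and 1 hybridisation each. The members were therefore set beside the 51 other detected miRNAs whose mean log2 intensity lay within the family's own range, 3.90 to 4.90. Those 51 had a median log2 ratio of 0.39 with quartiles of 0.17 and 0.51. Among them 33 were lower than miR-320a, 14 lower than miR-320b, 8 lower than miR-320c, 5 lower than miR-320d and 2 lower than miR-320e. The places of the members among these 51 were close to those in the whole profile. The range was shared by all 5 and not matched to each member, and d and e lay at its dim end. Whether brightness bears on the order of the members was therefore not tested.

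**Figure D2:**
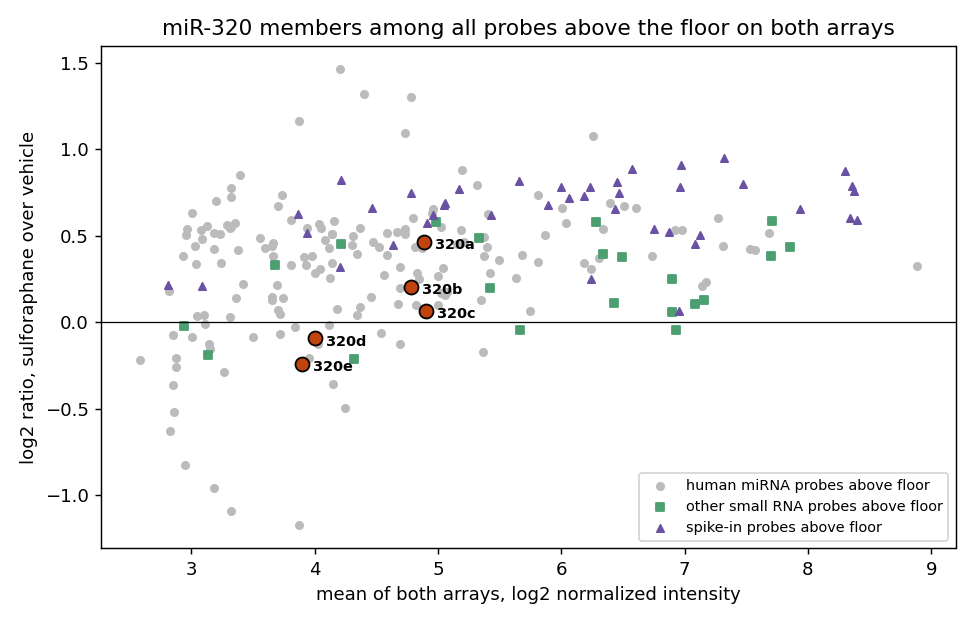
Log2 ratio, sulforaphane over vehicle, on the authors' scale against the mean log2 intensity of both arrays for probes above the floor on both arrays. The 5 miR-320 members are the large labelled points between 3.90 and 4.90 on the horizontal axis and run from 0.46 (a) to -0.24 (e), below the spike-in probes' median of 0.68.

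The spike-in probes used here, for synthetic RNAs, were recognised by their names alone, which carry the tag v2. The 41 detected had a median log2 ratio of 0.68, and all 41 lay above 0. Of these 41, 7 had a lower ratio than miR-320a, 1 a lower ratio than miR-320b, 1 a lower ratio than miR-320c, and 0 a lower ratio than miR-320d or miR-320e. Of the 168 detected miRNAs, 35 (20.8%), d and e among them, lay lower still than miR-320c, so such a place was not particular to the family. With the median log2 ratio of the spike-in probes subtracted, all 5 members were lower with sulforaphane, beside 91.1% of detected miRNAs. On that scale the log2 ratio of miR-320a was -0.21 and that of miR-320b was -0.47. miR-320c stood at -0.61, miR-320d at -0.77 and miR-320e at -0.92, which is 1.89-fold lower with sulforaphane. At least 1.5-fold lower were 3 of the 5, c, d and e, beside 23.2% of detected miRNAs. No member was 2-fold lower, beside 5.36%. The 6 spike-in probes in the members' own range of brightness had a lower median log2 ratio, 0.59. Scaling to those 6 was not run and would make every member's difference smaller. miR-320c, at 1.52-fold lower, lay close to the 1.5-fold limit, so the count of 3 depends on which spike-in probes are used. The sources used here do not give the amounts of spike-in added, and whether spike-in or sample RNA differed between the arrays cannot be told apart.

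A second reference, the 21 detected probes for 5S ribosomal RNA and for small nuclear and nucleolar RNAs, stood at a median log2 ratio of 0.25. Relative to it, miR-320a stood at 0.21 and miR-320b at -0.05. The shorter members stood at -0.19 for c, -0.35 for d and -0.49 for e. Only 2 of these 21 probes lay in the members' range of brightness, at log2 ratios of -0.21 and 0.46. This scale therefore rests mostly on probes of other brightness, and the sign of miR-320b, close to 0, is uncertain on it. Over the 8 other scalings tried, miR-320a was above 0 in 7 and below it after spike-in scaling. miR-320b and miR-320c were above 0 in 2 and below it in 6. miR-320d was likewise above 0 in 2, both without normalization, and miR-320e was below 0 in all 8. Of these scalings, 5 use 1 factor per array and so leave the order of the members and the gap of 0.71 between a and e as they were. The other 3 could alter them. There the ratios also fell from a to e, with a gap of 0.69 from foreground intensities, 0.60 after quantile and 0.66 after cyclic loess normalization.

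**Figure D3:**
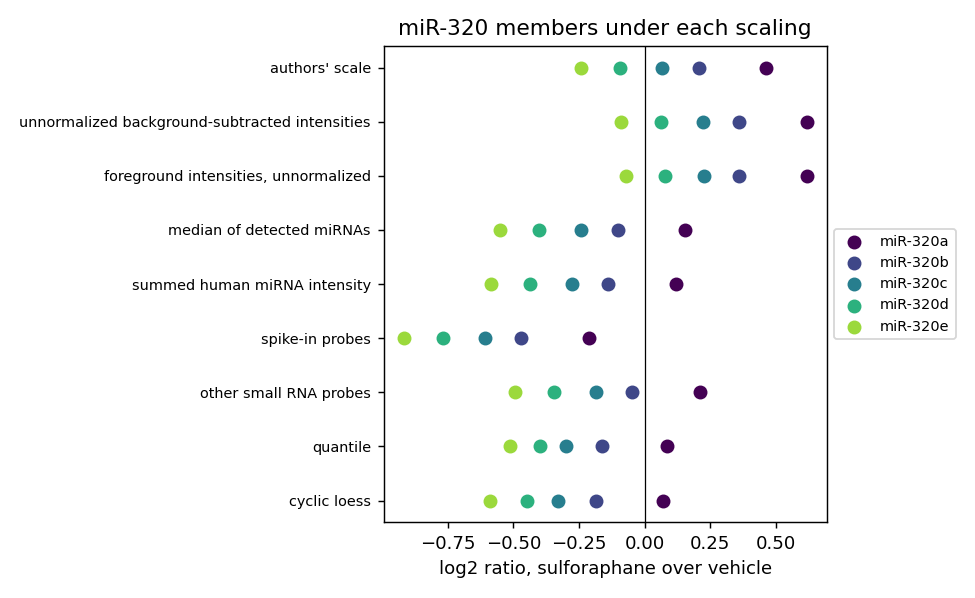
Log2 ratio, sulforaphane over vehicle, of each miR-320 member (coloured points) on the authors' scale and under the 8 other scalings, 1 per row; the vertical line marks 0. Most rows move all points by 1 shared amount, so their order and spacing are fixed there, and all 5 lie left of 0 only in the spike-in row, from -0.21 to -0.92.

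Other families of closely related isoforms are shown for scale only, since miR-320 was selected on its own ratios. The main arms of let-7, which represses RAS and MYC, had 6 of 8 probes above the floor with a median log2 ratio of 0.37. They ran from let-7a-5p (21.2 with sulforaphane and 20.0 with vehicle, log2 ratio 0.09) to let-7i-5p (152 with sulforaphane and 105 with vehicle, log2 ratio 0.54). The main arms of miR-30 had 4 of 5 above the floor with a median of 0.50. They ran from miR-30a-5p (17.7 with sulforaphane and 14.5 with vehicle, log2 ratio 0.28) to miR-30b-5p (17.2 with sulforaphane and 10.3 with vehicle, log2 ratio 0.73). The span of log2 ratios was 0.71 in the miR-320 family, 0.45 in let-7 and 0.45 in miR-30. The span of brightness was the other way round, at 1.01 log2 units in miR-320, 2.86 in let-7 and 2.19 in miR-30. On the authors' scale, where 17.3% of detected miRNAs lay below 0, 2 of the 5 miR-320 members did so and 0 of the detected main arms of let-7 and miR-30. After spike-in scaling, all 5 miR-320 members, all 6 of let-7 and 3 of the 4 of miR-30 lay below 0. The difference in span was not tested, as no replicate allows it and miR-320 was selected on these ratios. The spans of let-7 and miR-30 also leave out their members under the floor.

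**Figure D4:**
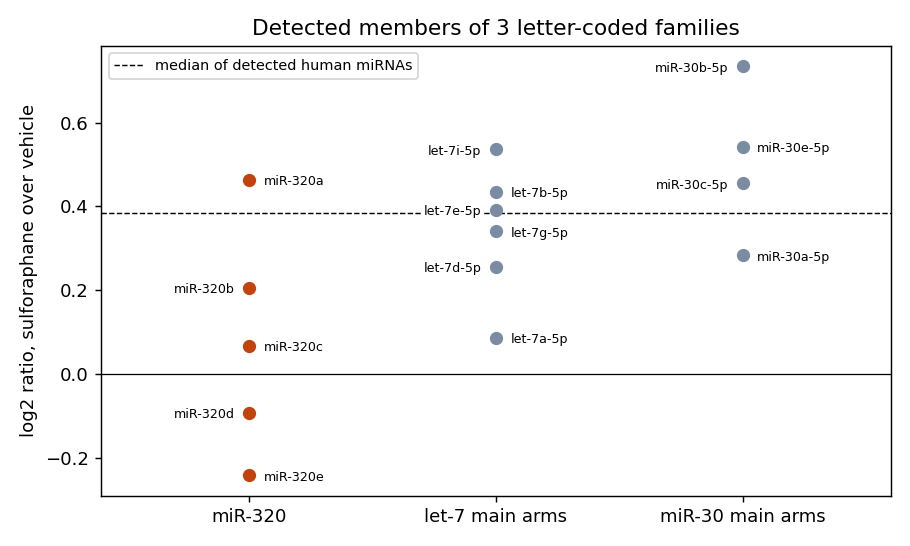
Log2 ratio, sulforaphane over vehicle, of each detected member (points) of the miR-320 family and of the let-7 and miR-30 main arms; the dashed line is the median of detected human miRNAs, 0.38. The miR-320 points span 0.71 and 4 of 5 lie below the dashed line, while the let-7 and miR-30 points each span 0.45 and all lie above 0 on the authors' scale, which is the one plotted.

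Mature length was set beside the ratios of other miRNAs, a split chosen after the values were seen. Of the 168 detected miRNAs, 139 matched a sequence by name, 4 of them members. Outside the family, the 20 miRNAs of up to 20 bases had a median log2 ratio of 0.29 with quartiles of 0.02 and 0.42. The 115 of 21 bases or more had a median of 0.42 with quartiles of 0.14 and 0.54. The shorter class held ratios from -0.29 to 1.47, and 5 of its 20 lay below 0, as did 17 of the 115. Over all 135 the Spearman correlation of length with log2 ratio was 0.12, a weak relation across miRNAs that share the same arrays. The correlation with guanine and cytosine content was 0.02. Whether length bears on the order within the family was not tested.

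The detected miRNAs nearest to the family's median ratio, among those of its brightness and by the size of the difference in log2 ratio over both arrays, were miR-4279, let-7a-5p and miR-361-5p. miR-4279 read 18.6 with sulforaphane and 17.6 with vehicle, a log2 ratio of 0.08. miR-361-5p read 20.7 with sulforaphane and 20.0 with vehicle, a log2 ratio of 0.05. With a single pair of arrays many miRNAs have a like ratio, so this likeness is a description only.

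Other miRNAs listed as made without Drosha gave no probe above the floor to set beside the family. The list held miR-484, whose hairpin also starts at a transcription start site. It also held miRNAs taken as mirtrons, a class of hairpins released by splicing, namely miR-877 and several of the miR-1224 to miR-1238 series. Whether each of these is made by splicing and without Drosha was not tested here. The list had 18 probes, of which 0 were above the floor with sulforaphane and 0 with vehicle. miR-484 read 1.96 with sulforaphane and 1.37 with vehicle. The brightest, miR-877-5p, read 4.48 with sulforaphane and 3.78 with vehicle. A difference in these miRNAs was not detectable at these signals, so the miR-320 values could not be set beside theirs. Whether miR-320b to miR-320e are themselves made without Drosha was not tested here.

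The labelled cell type could not be checked from the marker miRNAs, nearly all of which were under the floor. Of 6 epithelial markers, 0 were above the floor on either array, and the brightest read 3.96 with sulforaphane and 3.97 with vehicle. None of 6 blood and immune markers was above it. Of 8 mesenchymal and muscle markers 1 was, miR-206 with vehicle, at 6.61 against that array's floor of 6.44. The summed level of the epithelial list was 11.4 with sulforaphane and 10.2 with vehicle. That of the blood list was 5.66 with sulforaphane and 4.88 with vehicle. That of the mesenchymal and muscle list was 6.39 with sulforaphane and 9.91 with vehicle, and no marker of the 3 lists was at 0. Apart from miR-206 with vehicle, these sums hold only signals under the floor, so no difference between the arrays is read from them. As in any bulk sample, fewer cells with a miRNA and less of it per cell cannot be told apart. The probe sequences were not used here, and with 15 or more bases shared among the printed members, whether each probe binds its own member alone was not tested.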

How the data were processed

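The deposited workbook gave, per the file headers, foreground intensity, foreground minus background intensity, a normalized value and a fold change for each of 2661 probes on 2 arrays. Per the labels' protocols, RNA from TRIzol and a column kit was labelled with the Hy3 dye for miRCURY LNA arrays, whose capture probes hold locked nucleic acids. The sources used here name no scanner, background method or software. Each normalized value, as deposited, is a ratio: background-subtracted intensity over 1 factor per array, 124 for sulforaphane and 111.5 for vehicle. A single factor leaves intensity-dependent differences in place. The authors' deposited fold equalled the ratio of these values, and the series value table matched all 2661 probes.

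Log2 ratios of sulforaphane over vehicle were taken with no value added. The floor, the 2-fold rule and the alternatives follow an earlier treatment of these files, and the members and lists were chosen with earlier results of these data known. Named miRNAs were the 5 members, detected members of the Drosha-independent list, array miRNAs sharing a seed, the 3 nearest in ratio within the members' brightness range, and the ends of let-7 and miR-30. miR-484 and miR-877-5p, which were under the floor, and miR-206 were named after their values were seen. Quantile and cyclic loess normalization used limma 3.58.1 in R 4.3.3 on all probes, and other steps used Python 3.11.15 with numpy 2.4.6 and pandas 2.3.3. The ratio code was tested on simulated data, with ratios planted on probes brighter with vehicle than any member. The simulated noise was far smaller than the spread of the spike-in probes. That test checks the calculation only, and not the precision at the members' signals. The number of arrays limits the precision.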

Additional observations from a re-analysis of the deposited data

How the results depend on the processing

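The order of the members' log2 ratios could change only under foreground intensities, quantile, cyclic loess and the floor added before the logarithm, and it ran from a down to e under each of these. The other 5 scalings shift all ratios by 1 amount. Most alternatives likewise cannot reorder brightness within an array, so they say nothing of its stability. No member reached 2-fold in either direction under the 8 scalings or the added floor, or 1.5-fold on the authors' scale. The sign of single members depended on the scale. The members' median log2 ratio was -0.24 after scaling to the median of detected miRNAs, -0.28 after summed intensity, -0.61 after spike-in, -0.19 after small RNA, -0.30 after quantile and -0.33 after cyclic loess scaling. The count of members above 0 was 0 after spike-in scaling and 1 after the other 5 of these. For miR-320b these 6 scalings in the same order gave -0.10, -0.14, -0.47, -0.048, -0.16 and -0.19. For miR-320c they gave -0.24, -0.28, -0.61, -0.19, -0.30 and -0.33. Scaling to the median of detected miRNAs left the median log2 ratio of those miRNAs at 0.075. Its values therefore differ from the distances to the median log2 ratio given further above. miR-320a turned after spike-in scaling alone among the 8 scalings, to -0.21. miR-320d was at 0.061 with unnormalized background-subtracted intensities and at 0.079 with foreground intensities. With the floor at the highest viral probe, 0 members and 8 human miRNAs were above it, with 0 of the latter 2-fold higher and 0 lower. With the floor at the median of all probes all 5 members stayed above it, and 20 human miRNAs were at least 2-fold higher and 35 lower, against 6 and 2 at the floor used. At that lower floor the share of miRNAs with a lower ratio was 44.4% for b, 34.5% for c, 22.8% for d and 19.2% for e, against 31.5%, 20.8%, 11.9% and 6.55% at the floor used. No paired analysis was possible because each group held 1 array. The members' signals, 2.48 to 6.30 times the floor, and the single pair of arrays limit all of these values.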
